A study of Mus musculus with 6 samples.

Results

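The genes described here are the subunits of the integrins and the matrix glycoproteins that integrins bind. They are every gene of the expression table whose symbol names an integrin α or β subunit (Itga2b excepted), a laminin chain, thrombospondin 1, 2 or 3, tenascin C, N, R or XB, fibronectin, vitronectin or a nidogen. This rule, which uses names and no measured value, gave 47 of the 33971 genes, namely 25 integrin subunits and 22 matrix proteins. RNA sequencing compared articular cartilage of wild-type (WT) mice at 2 months of age with that of WT mice at 18 months, with 3 libraries at each age. The study asked how cartilage changes as mice age, and its methods describe male animals. Neither a strain for these libraries nor the number of animals behind each one is given in the labels, so the p-values measure only the spread between these libraries, which may be technical.

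Integrins are receptors made of an α and a β subunit that span the cell membrane. They hold the cell to its surroundings and pass signals both ways. The α subunit largely sets what is bound. One set of integrins recognises collagen, another laminin, another the RGD tripeptide of fibronectin and vitronectin, and a last set, found on blood cells, recognises molecules on the surface of other cells. Chondrocytes, the resident cells of cartilage, hold collagen II and fibronectin of the matrix mainly through integrins that contain the β1 chain. Laminins and nidogens build basement membranes and the thin matrix around the chondrocyte, whereas thrombospondins and tenascins are matricellular proteins that tune adhesion more than they bear load.

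Each library held between 48171507 and 59085179 counts. The libraries differed in 3 respects beyond the labelled age. The 2-month libraries held 88239, 102417 and 101615 counts of Xist, the RNA of the inactive X chromosome in females, against 11, 27 and 30 in the 18-month libraries, which goes against the stated sex for the 2-month libraries. Sex and age cannot be told apart here. The 16 chondrocyte markers (among them Col2a1, Acan, Comp and Sox9) summed to between 14510 and 17915 FPKM at 2 months and to between 361 and 1722 FPKM at 18 months, and all 16 were called lower. Matn1 and Matn3 were at 0 counts in 18-month replicate 3 and no other marker of the list was at 0 in any library. FPKM counts sequenced fragments per length of transcript and per depth of the library. The 14 neutrophil markers summed to 7.96 and 108 FPKM in 2-month replicates 1 and 3, to 4102 FPKM in 2-month replicate 2 and to between 42090 and 47040 FPKM at 18 months. Erythroid markers followed the same order, from 288 and 790 FPKM in 2-month replicates 1 and 3 through 7451 FPKM in replicate 2 to at least 30317 FPKM at 18 months. In all 18-month libraries the neutrophil and erythroid markers summed to more than the chondrocyte markers, and 2-month replicate 2 stood apart from the other 2-month libraries. Results that rest on this library are given with and without it. In bulk tissue, fewer cells of a type and less RNA per cell cannot be told apart.

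Counts were tested with edgeR's quasi-likelihood test on TMM-normalized libraries, with Benjamini-Hochberg adjustment over all 20397 genes tested. To be called, a gene needed an adjusted p below 0.05 together with a log2 fold change (18 months over 2 months) above 1 or below −1. Of the 47 genes, 46 were tested, since Itgb6, a subunit of epithelia, had at most 4 counts in any library. Among them 4 were called higher and 22 lower at 18 months, and 20 were not called. Over all genes tested, 14.9% were called higher and 21.3% lower, 36.3% in either direction. The 46 genes had a median log2 fold change of −0.88, beside −0.02 over all genes tested. The fall lay mainly with the matrix proteins, of which 14 of 22 were called lower and only Vtn higher. Of the 24 integrin subunits tested, 3 (Itga6, Itgb3 and Itgb7) were called higher and 8 lower. Without 2-month replicate 2, where 23.3% of all genes were called higher and 21.3% lower, 12 integrin subunits were called higher and 8 lower. All 18-month libraries lay above all 2-month libraries for 11 of the 47 genes and below them for 25, while the ages overlapped for the other 11. Over all genes tested, 35.6% lay above in this way and 32.8% below.

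**Figure D1:**
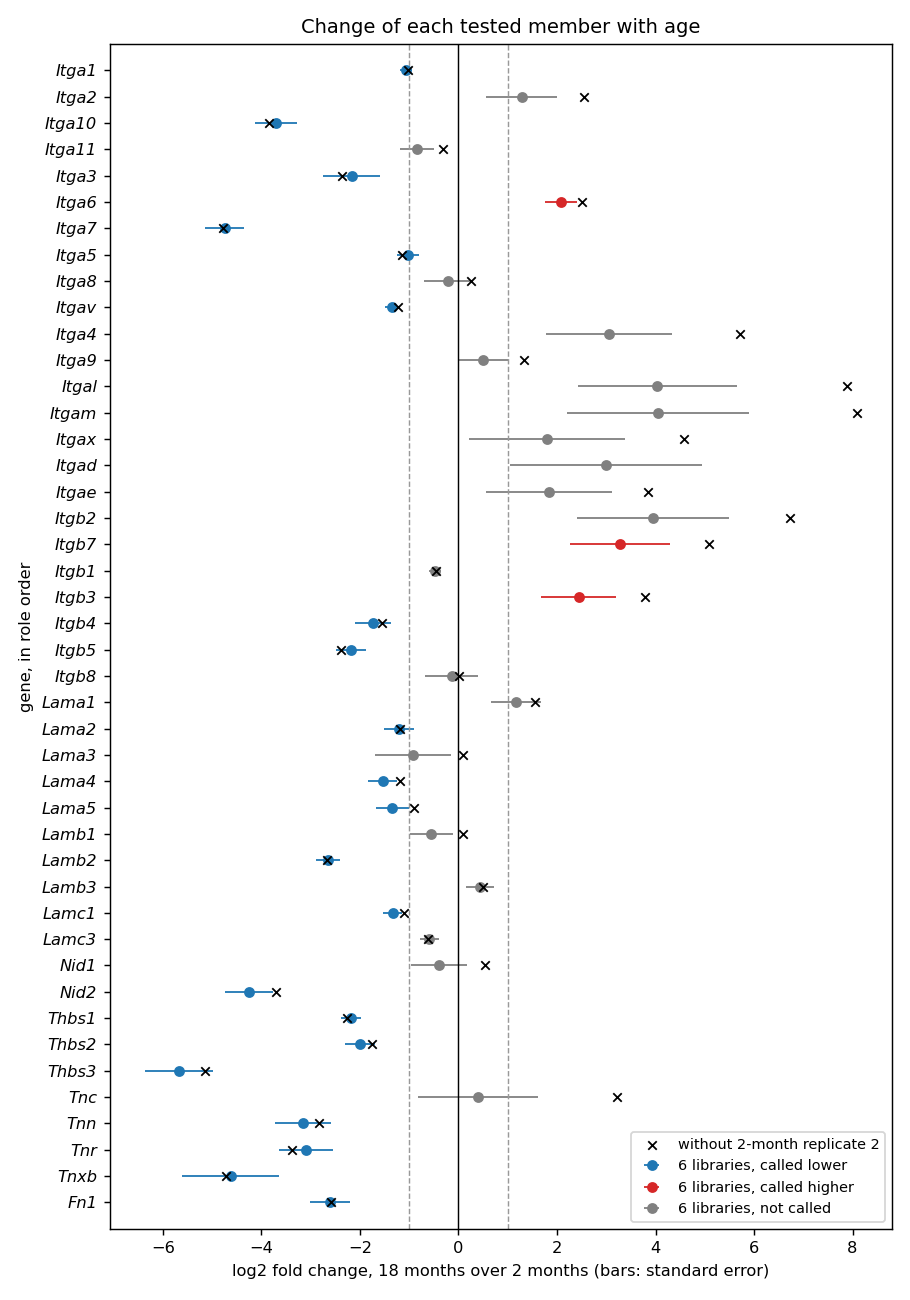
Log2 fold change of 18-month over 2-month cartilage on the horizontal axis for the tested genes described here, listed by role on the vertical axis, with bars for the standard error, colours for the call and crosses for the fit without 2-month replicate 2. Dashed lines mark the fold limits of −1 and 1. Vtn (0 counts at 2 months) and Itgb6 (not tested) are left out, and so is the cross of Itgad, which had 0 counts in the remaining 2-month libraries. The crosses of the leukocyte integrins lie far to the right of their circles, whereas those of Itga10, Thbs1 and Fn1 lie close to them.

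The collagen-binding α subunits fell at 18 months through Itga10 (ENSMUSG00000090210, chr3:96645584-96664519 on GRCm38), which forms with β1 the main collagen II receptor of chondrocytes. Itga10 stood at 114, 92.6 and 131 FPKM in 2-month replicates 1, 2 and 3 and at 15.0, 6.18 and 6.54 FPKM in 18-month replicates 1, 2 and 3. The ages lay far apart, and 18-month replicate 1 was 2.36 times the mean of the other 18-month libraries. The level fell by 3.71 on the log2 scale (SE 0.43, edgeR adjusted p = 0.002). Beside this fall, the level of Itga10 per 1000 FPKM of chondrocyte markers was 7.21, 6.38 and 7.32 FPKM at 2 months and 8.70, 16.8 and 18.1 FPKM at 18 months. Prg4 alone gave most of the 18-month marker sums, and without it the values were 11.7, 7.76 and 11.5 FPKM and then 45.1, 64.8 and 68.8 FPKM. The part of the chondrocyte markers in the fall was not tested.

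Of the other collagen receptors, Itga1, the α1 subunit that also binds basement membrane collagen, was called lower, from 2.90, 2.93 and 2.35 FPKM at 2 months to 1.40, 1.28 and 1.44 FPKM at 18 months (log2 fold change −1.06, SE 0.12, edgeR adjusted p = 0.00182). The libraries of each age lay close together, and the log2 fold change was −0.99, just inside the fold limit, without 2-month replicate 1. The call was lost in 6 of the 16 alternatives tried, among them total counts (−0.99) and DESeq2 (−0.98). Pelo overlaps Itga1 on the same strand, with a mean of 523 counts against 2264, so part of the Itga1 counts is uncertain. Itga2, the α2 subunit of platelets and epithelia, had 0.694, 4.79 and 1.03 FPKM at 2 months and 4.02, 6.03 and 6.02 FPKM at 18 months. Only 2-month replicate 2 reached the range of the 18-month libraries. Itga2 was not called over all libraries (log2 fold change 1.28, edgeR adjusted p = 0.18) and was called higher without that library (2.54, edgeR adjusted p = 0.00117). The 11 megakaryocyte and platelet markers stood at 1.05, 49.2 and 3.60 FPKM in sum at 2 months and at 1079, 1600 and 1561 FPKM at 18 months, with 10 of 11 called higher. Their part in the values of Itga2 was not tested. Itga11, the collagen receptor of fibroblasts, lay between 1.89 and 5.76 FPKM and was not called (log2 fold change −0.84, edgeR adjusted p = 0.091). Within the summed FPKM of these collagen-binding subunits, Itga10 made up 95.1%, 87.3% and 95.8% at 2 months and 66.8%, 39.6% and 41.2% at 18 months.

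Laminin-binding α subunits moved in both directions. Itga7, the laminin receptor best known from skeletal muscle, was at 2.63, 2.39 and 2.41 FPKM at 2 months and at 0.127, 0.0489 and 0.111 FPKM at 18 months, with at most 70 counts in any 18-month library. The 2-month libraries agreed closely with each other, and the ages were separated by more than an order of magnitude. Itga7 fell by 4.74 on the log2 scale (SE 0.39, edgeR adjusted p = 0.00114). Itga3, which with β1 binds laminins of epithelia, had 3.91, 2.08 and 2.78 FPKM at 2 months and 1.32, 0.393 and 0.387 FPKM at 18 months. Among the 18-month libraries, replicate 1 was 3.37 times the mean of the other libraries of its age. The fall of 2.17 on the log2 scale (SE 0.58, edgeR adjusted p = 0.0251) was not called without 2-month replicate 1, 2-month replicate 3, 18-month replicate 2 or 18-month replicate 3, with edgeR adjusted p-values of 0.0651, 0.0637, 0.0775 and 0.0768. Itga6, the laminin receptor of platelets and many stem and epithelial cells, went the other way. Its values were 2.26, 4.99 and 2.35 FPKM at 2 months and 11.6, 15.2 and 15.4 FPKM at 18 months, so that even the high 2-month replicate 2 lay below every 18-month library. Itga6 rose by 2.08 on the log2 scale (SE 0.33, edgeR adjusted p = 0.00446), or 4.23-fold, and by 2.51 without 2-month replicate 2. It was called higher in all 16 alternatives tried.

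The RGD-binding α subunits fell by less than Itga10. Itga5, the fibronectin receptor, had 14.3, 14.4 and 21.3 FPKM at 2 months and 10.1, 7.97 and 8.12 FPKM at 18 months, and Itgav, which pairs with several β chains to bind vitronectin and fibronectin, had 16.0, 19.9 and 14.6 FPKM and 6.47, 6.71 and 7.68 FPKM. Both were lower in every 18-month library than in every 2-month library. The fall of Itgav was 1.35 on the log2 scale (SE 0.14, edgeR adjusted p = 0.00165) and that of Itga5 1.03 (SE 0.22, edgeR adjusted p = 0.0111). The fall of Itga5 ended just inside the fold limit without 2-month replicate 3 (log2 fold change −0.78), 18-month replicate 2 (−0.97) or 18-month replicate 3 (−0.98). Its call was lost in 11 of the 16 alternatives, among them median-of-ratios size factors (−0.97), total counts (−0.95) and DESeq2 (−0.95). Itga8, which binds nephronectin, had at most 0.404 FPKM in any library and was not called (log2 fold change −0.21, edgeR adjusted p = 0.747).

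Leukocyte integrins gave the highest levels of any α or β subunit at 18 months. The β2 chain Itgb2 (ENSMUSG00000000290, chr10:77530252-77565686), the shared partner of the αL, αM, αX and αD chains, was at 0.233, 28.0 and 2.50 FPKM at 2 months and at 173, 151 and 152 FPKM at 18 months. Itgam, the αM chain of the complement receptor on neutrophils and monocytes, was at 0.0503, 16.5 and 0.585 FPKM and then at 109, 87.9 and 86.3 FPKM. Itgal, the αL chain of the lymphocyte and myeloid receptor for ICAMs, was at 0.0483, 4.18 and 0.127 FPKM and then at 29.1, 21.3 and 21.2 FPKM. For all 3 genes the 18-month libraries stood together at the top, 2-month replicate 2 stood alone between the ages, and 2-month replicates 1 and 3 were near the bottom of the range. The ages did not overlap.

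Because the 2-month libraries differed so widely, these rises were not called over all libraries. The log2 fold changes were 3.95 for Itgb2 (SE 1.54, edgeR adjusted p = 0.0766), 4.05 for Itgam (SE 1.85, edgeR adjusted p = 0.113) and 4.04 for Itgal (SE 1.62, edgeR adjusted p = 0.0821). Without 2-month replicate 2 they were called, at 6.74, 8.09 and 7.89, with edgeR adjusted p-values of 0.00363, 0.00185 and 0.000108. DESeq2 and limma on log2(FPKM + 0.1) called these 3 genes higher over all libraries. On simulated counts with known changes, DESeq2 made 43 false calls, against 6 for edgeR and 6 for limma. It recovered 168 of 200 changes, edgeR 157 of 196 and limma 154 of 199. The simulation held no library that stood apart from the others of its age. It therefore cannot tell which tool is right for these 3 genes. Itgb7, the β chain of the gut-homing and intraepithelial lymphocyte integrins, had 0.347, 6.40 and 1.03 FPKM at 2 months and 28.3, 23.7 and 24.7 FPKM at 18 months. It showed the same order of libraries with a smaller gap. Itgb7 was called higher over all libraries (log2 fold change 3.28, SE 1.02, edgeR adjusted p = 0.0395). That call was lost without 2-month replicate 3 (edgeR adjusted p = 0.113) or without 18-month replicate 1, 2 or 3 (0.0884, 0.0867 and 0.0884).

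Itga4, the α4 chain that pairs with β1 or β7 and binds VCAM1 and fibronectin, had 0.120, 4.33 and 0.346 FPKM at 2 months and 11.5, 14.0 and 14.4 FPKM at 18 months. Again 2-month replicate 2 was 18.6 times the mean of the other 2-month libraries. The log2 fold change was 3.06 over all libraries (SE 1.28, edgeR adjusted p = 0.0915) and 5.73 without 2-month replicate 2 (edgeR adjusted p = 0.000507). The remaining leukocyte chains were low at both ages, with at most 2.55 FPKM. Itgax, a marker of dendritic cells and macrophages, had 0, 499 and 47 counts at 2 months and 758, 681 and 662 counts at 18 months. Itgad had 0, 196 and 0 counts and then 305, 653 and 733 counts, so that against 2-month replicates 1 and 3, at a floor of 3 counts per library, it was at least 162-fold higher. Neither Itgax (edgeR adjusted p = 0.377) nor Itgad (edgeR adjusted p = 0.24) was called over all libraries, and both were called higher without 2-month replicate 2. Itgae, the partner of β7 that binds E-cadherin, had at most 99 counts and shares its locus with the far more abundant Haspin, so its counts are uncertain. Itga9, a receptor for tenascin C and osteopontin, ranged from 0.836 to 3.08 FPKM, with 2-month replicate 2 the highest library of all. Its log2 fold change was 0.50 (edgeR adjusted p = 0.435), and 1.33 without 2-month replicate 2 (edgeR adjusted p = 0.000737). The antisense gene Gm2415 overlaps Itga9 and held more counts, with a mean of 1573 against 932, so the counts of Itga9 are uncertain.

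Itgb2, Itgam, Itgal, Itgb7 and Itga4 ranked the 2-month libraries as the neutrophil and monocyte marker sums did, with replicate 2 highest and replicate 1 lowest. The sums of erythroid, megakaryocyte and platelet, lymphocyte, endothelial and osteoclast markers had the same order. Single markers could differ, such as the monocyte marker Cd14, which was highest in 2-month replicate 1. Of the 14 neutrophil markers 0 were called by edgeR over all libraries, 2 were higher at an unadjusted p below 0.05, DESeq2 called 11 higher and limma 13, and edgeR called 13 higher without 2-month replicate 2. Of the 7 leukocyte integrins, edgeR called 1 over all libraries and 7 without that library. The 12 monocyte and macrophage markers summed to 33.2, 696 and 109 FPKM at 2 months and to between 4158 and 5464 FPKM at 18 months. Lymphocyte markers were far lower, at between 185 and 231 FPKM for B cells and between 106 and 124 FPKM for T and NK cells at 18 months. Per 1000 FPKM of neutrophil markers, Itgam was at 6.32, 4.02 and 5.40 FPKM at 2 months and at 2.58, 1.87 and 1.86 FPKM at 18 months. For Itgb2 the values were 29.2, 6.83 and 23.1 and then 4.11, 3.20 and 3.28. Those of Itgal were 6.06, 1.02 and 1.17 and then 0.69, 0.45 and 0.46. Itga4 had 15.1, 1.05 and 3.20 and then 0.27, 0.30 and 0.31, and Itgb7 43.6, 1.56 and 9.52 and then 0.67, 0.50 and 0.53. Each of these genes thus had a lower ratio in every 18-month library than in every 2-month library. In 21 of the 47 genes 2-month replicate 2 was above 2 times the mean of the other 2-month libraries, beside 18.3% of the 19636 genes for which this ratio could be formed. Of those 21 genes, 13 were integrin subunits. The part of these cell types in the values was not tested.

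**Figure D2:**
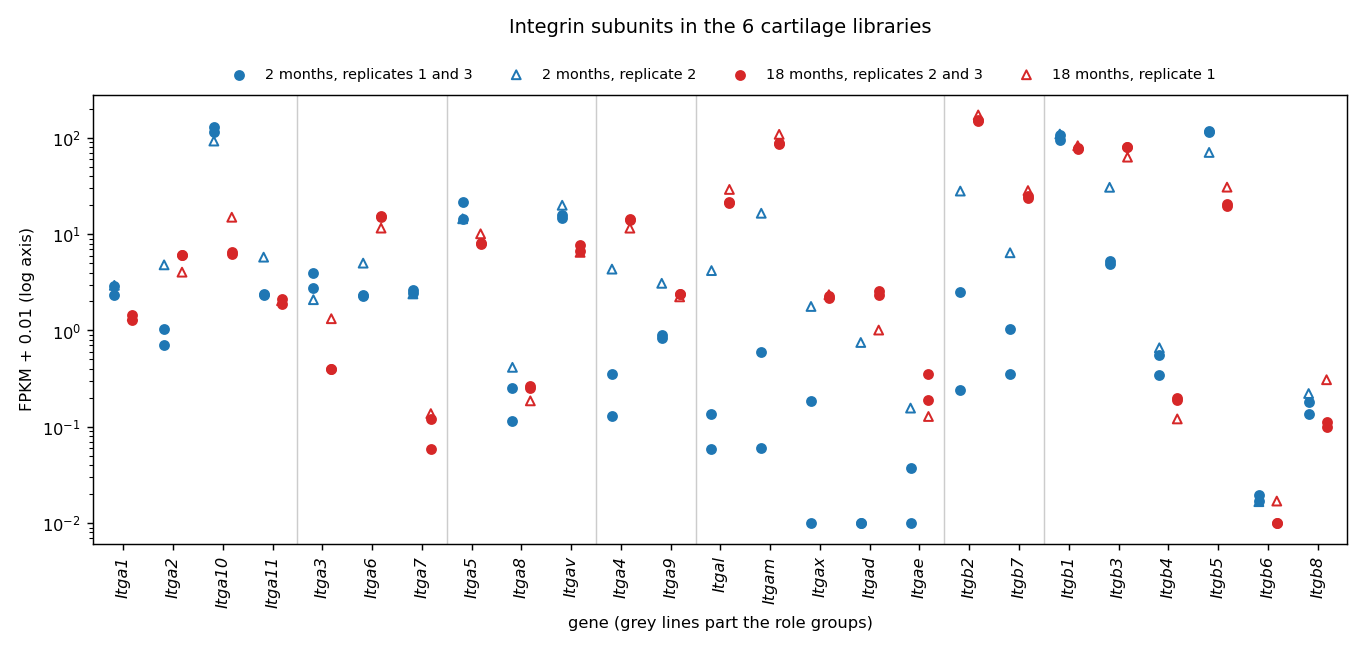
FPKM + 0.01 on a log axis for each integrin subunit in each library, with 2-month libraries in blue and 18-month libraries in red, triangles for 2-month replicate 2 and 18-month replicate 1, and grey lines between role groups. For Itgal, Itgam and Itgb2 the blue triangle lies between the other 2-month libraries and the 18-month libraries, whereas for Itga10 and Itgb5 all blue symbols lie above all red ones.

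The genes Itgam, Itgax and Itgad lie in a row on chromosome 7, on the plus strand, with 11055 bases between Itgam and Itgax and 3718 bases between Itgax and Itgad. Itgal lies on the same chromosome at chr7:127296260-127335138. Itgax and Itgad share stretches of sequence. Among 1081 pairs of the 47 genes, their transcripts shared 384 runs of 50 bases, 8.02% of those of Itgax, and 1 other pair, Itga1 and Itga11, shared 1. The longest run that the coding sequences of Itgax and Itgad share in GENCODE M21 transcripts is 188 bases, at positions 1201 to 1388 of the 3507 coding bases of Itgax and 1324 to 1511 of the 3606 of Itgad. It is printed since fragments that lie wholly within it cannot be assigned to either gene. The methods describe library fragments longer than this run. How far it affects the split between these low counts was not measured.
Itgax and Itgad, shared coding run: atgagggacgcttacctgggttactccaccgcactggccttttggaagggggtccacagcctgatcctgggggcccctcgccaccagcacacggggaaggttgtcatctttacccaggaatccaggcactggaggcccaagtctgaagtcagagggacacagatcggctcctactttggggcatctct

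Promoter sequences show what lies at the start sites of some of the genes that stood high where neutrophil markers did, beside that of Itga10. Itgb2, Itgal, Itgad and Itgae had no promoter entry and are missing from what follows. Of the 47 genes 30 had an entry in the RefSeq promoter table for GRCm38.p6, with 34 entries in all, each running from 250 bases before to 50 bases after a start. The motifs searched, on both strands, were GAGGAAG (the core bound by PU.1, a factor of myeloid cells), TGTGGT (RUNX), ACAATG (SOX), GGGCGG (the GC box) and TATAAA (the TATA box). They occur in 13.6%, 16.8%, 12.6%, 35.7% and 13.6% of all 32851 promoters. Capitals mark matches to GAGGAAG or TGTGGT, read on either strand. The windows are chr7:128062390-128062689 for Itgam, chr7:128129300-128129599 for Itgax, chr2:79255176-79255475 for Itga4, chr15:102231886-102232185 for Itgb7 (minus strand) and chr3:96645334-96645633 for Itga10, each printed 5′ to 3′ in the direction of the gene.
Itgam: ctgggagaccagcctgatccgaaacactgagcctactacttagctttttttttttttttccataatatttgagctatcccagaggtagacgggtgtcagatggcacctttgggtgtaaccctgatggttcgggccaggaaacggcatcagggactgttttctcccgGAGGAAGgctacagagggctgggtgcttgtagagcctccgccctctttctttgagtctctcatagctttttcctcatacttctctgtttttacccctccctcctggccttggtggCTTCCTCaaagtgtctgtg
Itgax: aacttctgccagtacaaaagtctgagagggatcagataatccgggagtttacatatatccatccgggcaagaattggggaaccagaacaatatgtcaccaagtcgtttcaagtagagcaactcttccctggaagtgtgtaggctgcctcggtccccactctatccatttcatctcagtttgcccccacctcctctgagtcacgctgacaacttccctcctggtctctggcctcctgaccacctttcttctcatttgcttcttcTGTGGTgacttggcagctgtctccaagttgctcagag
Itga4: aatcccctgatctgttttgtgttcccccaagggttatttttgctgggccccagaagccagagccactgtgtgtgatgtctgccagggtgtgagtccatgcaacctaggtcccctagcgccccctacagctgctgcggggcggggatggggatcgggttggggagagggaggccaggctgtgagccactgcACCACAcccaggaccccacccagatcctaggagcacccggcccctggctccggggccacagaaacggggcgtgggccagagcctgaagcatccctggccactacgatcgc
Itgb7: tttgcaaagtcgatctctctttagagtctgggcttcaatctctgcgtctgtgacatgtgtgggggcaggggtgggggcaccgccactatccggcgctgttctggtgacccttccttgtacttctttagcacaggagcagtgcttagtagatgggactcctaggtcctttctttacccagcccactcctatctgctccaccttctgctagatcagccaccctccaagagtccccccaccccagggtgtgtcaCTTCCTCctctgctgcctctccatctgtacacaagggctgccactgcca
Itga10: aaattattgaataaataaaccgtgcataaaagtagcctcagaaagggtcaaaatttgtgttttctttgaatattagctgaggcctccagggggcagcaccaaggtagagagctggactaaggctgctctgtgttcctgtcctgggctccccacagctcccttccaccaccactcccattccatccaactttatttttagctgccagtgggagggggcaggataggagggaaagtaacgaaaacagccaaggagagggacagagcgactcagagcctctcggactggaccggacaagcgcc

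In the Itgam promoter GAGGAAG began 84 bases before the start, and its reverse complement lay downstream of the start. Itgb7 carried the reverse complement just downstream of its start. TGTGGT lay downstream of the start in Itgax, and its reverse complement began 60 bases before the start in Itga4. The GC box was present, unmarked, in the windows of Itgam and Itga4. The Itga10 window held none of the 5 motifs. Of the 9 promoters of genes called higher without 2-month replicate 2, GAGGAAG was present in 4, TGTGGT in 2, the GC box in 5 and the TATA box in 3. A pair of these windows are overlapping starts of Tnc that share 1 GAGGAAG site, so that by gene the counts were 3, 2, 4 and 2 of 8. The same motifs were present in 2, 1, 7 and 1 of the 14 promoters of genes called lower, and in 4, 0, 4 and 0 of the 11 promoters of genes not called. By gene these counts were 2, 1, 6 and 1 of 13 and 4, 0, 4 and 0 of 9. ACAATG was present in 0 of the 9, 0 of the 14 and 1 of the 11 promoters. A match is a string of letters and was not tested as a binding site.

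Among the other β subunits, Itgb1, the common partner of the collagen-, laminin- and fibronectin-binding α chains, differed little between the ages. It was at 108, 109 and 95.5 FPKM at 2 months and at 82.8, 76.1 and 78.2 FPKM at 18 months, and every 18-month library was below every 2-month library. The fall of 0.48 on the log2 scale (SE 0.12, edgeR adjusted p = 0.0187) lay within the fold limits and was not called. Itgb5, which forms a vitronectin receptor with αv, was at 117, 70.6 and 114 FPKM at 2 months and at 30.8, 20.5 and 19.8 FPKM at 18 months. Its lowest 2-month library was replicate 2, which still lay well above the highest 18-month library. Itgb5 fell by 2.18 on the log2 scale (SE 0.30, edgeR adjusted p = 0.0032).

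Itgb3, the β chain of the platelet fibrinogen receptor and of the osteoclast vitronectin receptor, was at 4.93, 30.7 and 5.20 FPKM at 2 months and at 63.1, 81.0 and 80.3 FPKM at 18 months. All 18-month libraries lay above 2-month replicate 2, which was 6.05 times the mean of the other 2-month libraries. Itgb3 was called higher (log2 fold change 2.44, SE 0.76, edgeR adjusted p = 0.0396), and its log2 fold change was 3.79 without 2-month replicate 2. Leaving out any other library ended the call, with edgeR adjusted p-values of 0.0796 and 0.0985 without 2-month replicates 1 and 3 and 0.0755, 0.096 and 0.0955 without 18-month replicates 1, 2 and 3. The 8 osteoclast markers, with 37.7, 2469 and 439 FPKM at 2 months and between 972 and 1139 FPKM at 18 months, were highest in 2-month replicate 2. By edgeR 0 of them were called, also at an unadjusted p below 0.05, and 0 by DESeq2 or limma. The megakaryocyte and platelet, neutrophil and erythroid sums ranked the libraries as Itgb3 did. The part of these cell types in the Itgb3 values was not tested. Itgb4, the β chain of hemidesmosomes, was low, at 0.339, 0.651 and 0.540 FPKM and 0.111, 0.188 and 0.180 FPKM, and was called lower (log2 fold change −1.73, SE 0.36, edgeR adjusted p = 0.0113). Itgb8, which with αv releases active TGF-β, had at most 0.298 FPKM and was not called (log2 fold change −0.14, edgeR adjusted p = 0.839).

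As shares of a summed pool, the integrin subunits were of a different make-up at the 2 ages while the summed α level was close, at 160, 181 and 183 FPKM at 2 months and 207, 177 and 177 FPKM at 18 months. Itga10 made up 64.7% ± 11.7 (SD, n = 3) of the α pool at 2 months and 4.81% ± 2.10 at 18 months. Itgam made up 3.15% ± 5.15 at 2 months and 50.3% ± 1.92 at 18 months. In 2-month replicate 2 the share of Itgam was 9.10%, and without this library its 2-month mean was 0.176%. The summed β level was 231, 246 and 219 FPKM at 2 months and 378, 352 and 356 FPKM at 18 months. This sum was higher in every 18-month library, so a share of it can fall by more than the level does. In the β pool, Itgb5 went from 43.8% ± 13.1 to 6.50% ± 1.42, Itgb1 from 44.9% ± 1.53 to 21.8% ± 0.200, and Itgb2 from 4.21% ± 6.24 to 43.8% ± 1.69. The 2-month mean of Itgb2 was 0.622% without replicate 2. The smallest p that an exact permutation of 3 against 3 libraries allows is 0.1, so these shares are given as a description.

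**Figure D3:**
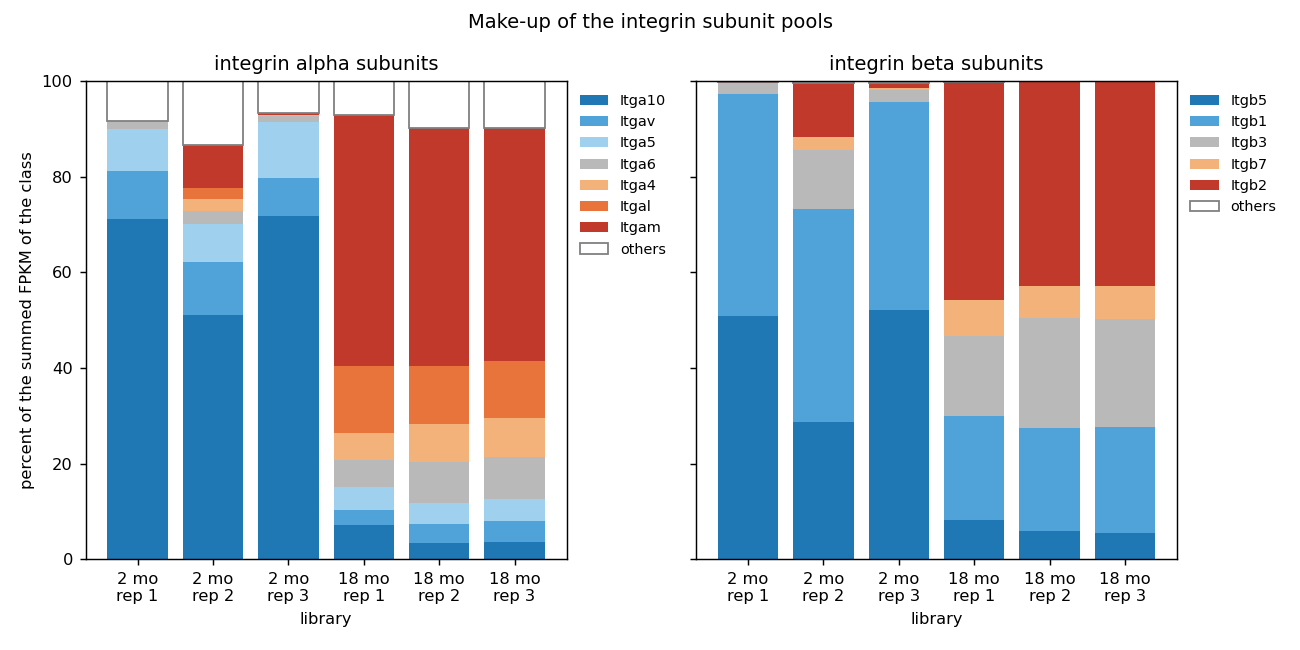
Stacked bars of the share of each subunit in the summed FPKM of all α subunits (left) and all β subunits (right), in percent, 1 bar per library, with the named subunits in colour and the remaining ones in white. Itga10 and Itgb5 fill most of the bars of 2-month replicates 1 and 3, and Itgam and Itgb2 the largest part of the 18-month bars.

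Laminins, trimers of an α, a β and a γ chain, fell or were not called. Of their 11 chains, 6 were called lower and 0 higher by edgeR, and 0 were called higher without 2-month replicate 2. At an unadjusted p below 0.05 there were likewise 0 higher, limma called 0 higher and DESeq2 called 1, Lama1. The β2 chain Lamb2, of basement membranes in mature muscle, nerve and kidney, was the most abundant chain. It was at 23.2, 24.7 and 25.4 FPKM at 2 months and at 5.73, 3.03 and 3.59 FPKM at 18 months. The 2-month libraries were within a narrow range and the 18-month libraries all lay below. Lamb2 fell by 2.65 on the log2 scale (SE 0.25, edgeR adjusted p = 0.00136) and made up 92.8% ± 3.83 (SD, n = 3) of the laminin β pool at 2 months and 72.2% ± 2.75 at 18 months.

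Lamc1, the γ chain of most laminins, was at 5.09, 8.96 and 6.25 FPKM at 2 months and at 3.05, 2.77 and 2.60 FPKM at 18 months. The highest 2-month library was replicate 2. Lamc1 was called lower (log2 fold change −1.33, SE 0.19, edgeR adjusted p = 0.00338). Lama4, the α chain of endothelial and mesenchymal laminins, made up 61.8% ± 1.93 (SD, n = 3) of the laminin α pool at 2 months and 53.5% ± 2.48 at 18 months. It went from 1.94, 4.34 and 2.54 FPKM to 1.26, 0.945 and 0.955 FPKM, with 2-month replicate 2 again the highest library. The log2 fold change of Lama4 was −1.54 (SE 0.29, edgeR adjusted p = 0.0076).

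Lama5, the widespread α chain of adult basement membranes, had 0.876, 1.9 and 0.834 FPKM at 2 months and 0.574, 0.478 and 0.426 FPKM at 18 months, and Lama2, the α chain of muscle and peripheral nerve, had 0.317, 0.424 and 0.448 FPKM and 0.250, 0.124 and 0.170 FPKM. In both genes the ages did not overlap, but the gap between them was small against the spread within an age. Each was called lower over all libraries, with log2 fold changes of −1.34 for Lama5 (edgeR adjusted p = 0.0194) and −1.21 for Lama2 (0.0221). Neither call held throughout. Lama5 ended inside the fold limit without 2-month replicate 2 (log2 fold change −0.90) and had edgeR adjusted p-values of 0.0689 and 0.0737 without 18-month replicates 2 and 3. Lama2 was not called without 2-month replicate 3 (0.0758), 18-month replicate 2 (0.0631) or 18-month replicate 3 (0.0784).

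The 5 laminin chains that were not called were Lama1, Lama3, Lamb1, Lamb3 and Lamc3, with at most 2.95 FPKM in any library. Lamc3, the γ3 chain, fell by 0.59 on the log2 scale with an edgeR adjusted p of 0.0472, within the fold limits. Lamb1, the β1 chain of embryonic and vascular laminins, was highest in 2-month replicate 2 and had a log2 fold change of −0.55 (edgeR adjusted p = 0.331). Lamb3 shares its locus with Hsd11b1 and G0s2 on the other strand, which held more counts than Lamb3 itself, and whether the counting used the strand is not given in the sources used here. The 11 endothelial markers summed to 6.63, 72.2 and 13.2 FPKM at 2 months and to between 53.8 and 62.0 FPKM at 18 months. Of the 11, 2 were called higher over all libraries and 10 without 2-month replicate 2. Their part in the laminin values was not tested.

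The nidogens, which link laminin to collagen IV networks, parted from each other. Nid2 was at 7.35, 26.9 and 13.7 FPKM at 2 months and at 0.948, 0.907 and 0.733 FPKM at 18 months. The 2-month libraries spread widely, with replicate 2 the highest, and all lay far above the 18-month libraries. Nid2 fell by 4.26 on the log2 scale (SE 0.48, edgeR adjusted p = 0.00193). Nid1 had 1.23, 6.34 and 1.98 FPKM and then 2.47, 2.67 and 2.31 FPKM, and the ages overlapped through 2-month replicate 2 alone. Its log2 fold change was −0.39 (edgeR adjusted p = 0.588), and 0.53 without that library (edgeR adjusted p = 0.104). The ratio of Nid2 to Nid1 was 5.98, 4.24 and 6.95 at 2 months and 0.384, 0.340 and 0.318 at 18 months. Nid2 overlaps Rtraf on the other strand, with a mean of 3807 counts against 2515 for Nid2, so part of the Nid2 counts is uncertain.

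All 3 thrombospondins fell. Thbs1 (ENSMUSG00000040152, chr2:118111876-118127133), which activates latent TGF-β and inhibits vessel growth, was at 295, 278 and 352 FPKM at 2 months and at 67.7, 74.6 and 74.0 FPKM at 18 months. The libraries of each age were close together and the ages were far apart. Thbs1 fell by 2.18 on the log2 scale (SE 0.20, edgeR adjusted p = 0.00136), or 4.53-fold. Thbs3, a pentameric relative of cartilage oligomeric matrix protein, was at 14.8, 57.0 and 30.4 FPKM and then at 1.15, 0.433 and 0.474 FPKM. Its 2-month libraries spanned a wide range with replicate 2 at the top, and 18-month replicate 1 was 2.54 times the mean of the other 18-month libraries. The fall of Thbs3, by 5.67 on the log2 scale (SE 0.69, edgeR adjusted p = 0.00221), was the largest of the 46 genes tested. Thbs2, the second trimeric thrombospondin, was at 4.75, 10.2 and 7.75 FPKM and then at 1.56, 2.05 and 2.30 FPKM. No library of one age reached into the range of the other. Thbs2 fell by 2.00 on the log2 scale (SE 0.30, edgeR adjusted p = 0.00388). Thbs1 made up 88.2% ± 6.86 (SD, n = 3) of the thrombospondin pool at 2 months and 96.4% ± 0.321 at 18 months.

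The tenascins Tnxb, Tnn and Tnr fell, and Tnc was not called. Tnxb, the tenascin of tendon and skin that organises collagen fibrils, was at 3.90, 3.24 and 3.95 FPKM at 2 months and at 0.390, 0.0441 and 0.0485 FPKM at 18 months. The value of 18-month replicate 1 was 8.43 times the mean of the other 18-month libraries, the widest such gap among the members. Tnxb fell by 4.63 on the log2 scale (SE 0.98, edgeR adjusted p = 0.0114). Tnn, found in osteogenic tissue and periosteum, was at 1.08, 4.26 and 3.39 FPKM and then at 0.485, 0.280 and 0.255 FPKM, and fell by 3.16 (SE 0.56, edgeR adjusted p = 0.00654). Tnr, best known from the nervous system, had 131, 86 and 210 counts at 2 months and 32, 15 and 15 counts at 18 months, and fell by 3.10 (SE 0.54, edgeR adjusted p = 0.00624). Every 18-month value of these genes lay below every 2-month value.

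Tnc, the tenascin of injured and remodelling tissue, varied widely among the 2-month libraries. It was at 2.16, 80.7 and 5.64 FPKM at 2 months and at 44.9, 36.2 and 35.9 FPKM at 18 months. The value of 2-month replicate 2 was above every other library, and the remaining 2-month libraries were far below the 18-month ones. Tnc was not called over all libraries (log2 fold change 0.40, SE 1.22, edgeR adjusted p = 0.801) and was called higher without 2-month replicate 2 (3.21, edgeR adjusted p = 0.00212). Without 2-month replicate 1 or 3 its log2 fold change was −0.14 or −0.08. Markers of osteoblasts and osteocytes summed to 4170, 5906 and 3763 FPKM at 2 months, with 2-month replicate 2 the highest, and to between 1913 and 2204 FPKM at 18 months. The osteoclast markers, at 37.7, 2469 and 439 FPKM at 2 months and between 972 and 1139 FPKM at 18 months, were also highest in that library. The part of these cell types in the Tnc values was not tested.

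Fibronectin, the main RGD ligand of the integrins in cartilage, was by mean FPKM the most abundant of the matrix proteins at 2 months. In 2-month replicate 3 Thbs1 lay above it, at 352 FPKM. Fn1 (ENSMUSG00000026193, chr1:71585520-71653175) was at 356, 371 and 316 FPKM at 2 months and at 97.9, 41.6 and 42.3 FPKM at 18 months. The 2-month libraries lay close together, and 18-month replicate 1 stood 2.33 times above the mean of the other 18-month libraries. Fn1 fell by 2.61 on the log2 scale (SE 0.41, edgeR adjusted p = 0.00438), or 6.09-fold. Vitronectin, a plasma protein made chiefly in liver, gave 0, 0 and 0 counts at 2 months and 15, 23 and 53 counts at 18 months. Against a floor of 3 counts per library, Vtn was at least 8.89-fold higher at 18 months (edgeR adjusted p = 0.0132), at a level of at most 0.397 FPKM.

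**Figure D4:**
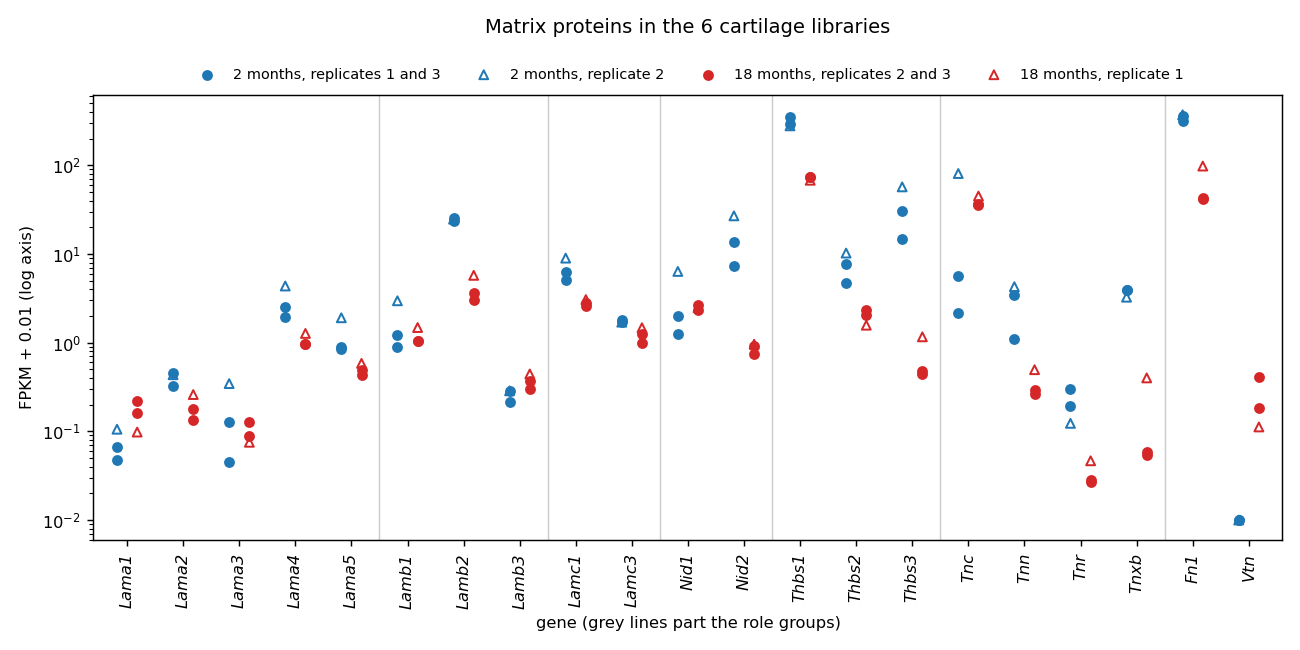
FPKM + 0.01 on a log axis for each described laminin, nidogen, thrombospondin, tenascin, Fn1 and Vtn in each library, with 2-month libraries in blue and 18-month libraries in red, triangles for 2-month replicate 2 and 18-month replicate 1, and grey lines between families. Fn1, Thbs1 and Lamb2 are lower in all 18-month libraries, while the blue triangle of Tnc lies above all other symbols of that gene.

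The fall of the matrix proteins stood beside the fall of the chondrocyte markers. Per 1000 FPKM of those markers, Fn1 was at 22.5, 25.5 and 17.6 FPKM at 2 months and at 56.8, 113 and 117 FPKM at 18 months, and Thbs1 was at 18.7, 19.2 and 19.7 FPKM and then at 39.3, 203 and 205 FPKM. For Tnxb the same ratio was 0.247, 0.223 and 0.221 at 2 months and 0.227, 0.120 and 0.134 at 18 months. This ratio was higher in every 18-month library for Fn1 and Thbs1, and it stayed so without Prg4. For Tnxb the direction turned with the choice of markers, since without Prg4 its ratio was 0.402, 0.272 and 0.345 at 2 months and 1.17, 0.463 and 0.510 at 18 months. Markers of synovial and tendon fibroblasts summed to between 1483 and 2611 FPKM at 2 months and between 371 and 523 FPKM at 18 months, with 8 of 12 called lower. The 18-month library with the most chondrocyte marker RNA, replicate 1, was also the highest of its age for Itga10, Lamb2, Thbs3, Tnxb and Fn1. For other genes called lower, among them Thbs1, Thbs2, Itgav and Itgb4, that library was the lowest of its age. The part of these cell types in the fall was not tested.

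Partners of these genes were described from 4 lists. Of 33 adaptor and signalling proteins that bind integrins inside the cell, 32 were tested. In this list 12 rose and 10 fell past both limits, around a median of 0.88 on the log2 scale. Over all genes tested, 14.9% rose and 21.3% fell in this way, shares to be set beside all 4 lists. The adaptor with the largest rise was Fermt3, the kindlin of blood cells, which went from 0.291, 7.86 and 0.725 FPKM at 2 months to 51.4, 60.8 and 60.6 FPKM at 18 months (log2 fold change 4.28, SE 1.27, edgeR adjusted p = 0.0343). It stood highest among the 2-month libraries in replicate 2, as the leukocyte integrins did. Parvb and Zyx, focal adhesion proteins, rose by 3.60 (edgeR adjusted p = 0.0266) and 3.15 (0.00121), and Rap1b, the small GTPase that activates integrins and the most abundant gene of the list by the mean over all 6 libraries, rose by 2.46 (0.00211). The calls of Fermt3 and Parvb were lost without 2-month replicate 3 (edgeR adjusted p = 0.0899 and 0.0863) and without 18-month replicate 1 (0.0702 and 0.0552), replicate 2 (0.0792 and 0.0676) or replicate 3 (0.0789 and 0.0677). The largest falls were those of Lims2, a partner of integrin-linked kinase (log2 fold change −4.90, edgeR adjusted p = 0.00327), Tns2, a tensin (−3.20, 0.00188), and the docking protein Bcar1 (−3.13, 0.000706).

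Basement membrane genes other than laminins and nidogens were mostly lower at 18 months. Of 21 genes, 17 were called lower by edgeR, 4 (Col4a1, Col18a1, Npnt and Hmcn2) were not called, and the median of the log2 fold changes was −3.10. Those called higher numbered 0 with edgeR (also 0 at an unadjusted p below 0.05), 0 with DESeq2 and 0 with limma. Sparc, a collagen-binding glycoprotein of bone and basement membranes and by far the most abundant, went from 4447, 6274 and 6325 FPKM to 406, 377 and 374 FPKM (log2 fold change −3.96, SE 0.39, edgeR adjusted p = 0.00153). The largest falls were those of Frem1 (−5.88, edgeR adjusted p = 0.001) and Fras1 (−5.68, 0.00256), which anchor epithelial basement membranes and had at most 1.22 FPKM, and of Col4a5 (−4.81, 0.00258), a chain of collagen IV. Neither Frem1 nor Fras1 was called with limma on log2(FPKM + 1), a scale that shrinks changes at such levels.

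Among 16 matrix receptors other than integrins, of which 15 were tested, 3 rose and 9 fell past both limits, around a median of −2.00 on the log2 scale. Sdc4, a heparan sulfate proteoglycan of focal adhesions and the most abundant of these receptors by the mean over all 6 libraries, went from 253, 142 and 236 FPKM at 2 months to 31.9, 15.3 and 15.2 FPKM at 18 months. No 18-month library reached the lowest 2-month one. Sdc4 fell by 3.44 on the log2 scale (SE 0.43, edgeR adjusted p = 0.00239). The syndecan Sdc3 fell by 3.17 (edgeR adjusted p = 0.000959) and the laminin receptor Bcam by 2.82 (0.00187). The 3 that rose were receptors of thrombospondin 1 or hyaluronan: Cd36 (log2 fold change 2.86, edgeR adjusted p = 0.0148), Cd44 (2.12, 0.0316) and Cd47 (1.93, 0.00161). The call of Cd36 was lost without 2-month replicate 3 (edgeR adjusted p = 0.0545). That of Cd44 was lost without 2-month replicate 3 (0.103) or 18-month replicate 1, 2 or 3 (0.0778, 0.0766 and 0.0748).

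Cell-bound ligands of the leukocyte integrins numbered 11, of which 10 were tested. Of these, 3 rose and 2 fell past both limits, beside 14.9% and 21.3% over all genes tested. Their median was 2.30 on the log2 scale. Vcam1, the ligand of α4 and the most abundant of the list by the mean over all 6 libraries, was at 0.267, 10.2 and 0.414 FPKM at 2 months and at 37.7, 49.0 and 47.9 FPKM at 18 months. Here too, 2-month replicate 2 stood alone between the other 2-month libraries and the 18-month libraries. Vcam1 was not called over all libraries (log2 fold change 3.64, edgeR adjusted p = 0.0798) and was called higher without 2-month replicate 2 (6.93, edgeR adjusted p = 7.76e-05). Cdh1, the ligand of Itgae with β7, rose from 0.0586, 0.183 and 0.0274 FPKM to 1.53, 1.40 and 1.12 FPKM (log2 fold change 3.84, SE 0.66, edgeR adjusted p = 0.00583). Thy1 and F11r also rose, by 2.67 (edgeR adjusted p = 0.0461) and 2.28 (0.0487), but neither was called without 2-month replicate 3 (0.124 and 0.14) or without 18-month replicate 1 (0.106 and 0.0816), replicate 2 (0.103 and 0.121) or replicate 3 (0.0946 and 0.113). The junctional proteins Jam2 and Jam3 fell by 2.46 (edgeR adjusted p = 0.00557) and 2.40 (0.00186).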

How the data were processed

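Articular cartilage of mice was profiled by RNA sequencing in 6 libraries, 3 at 2 months and 3 at 18 months, made from polyadenylated RNA with strand marking and molecular identifiers. The authors deposited raw whole-number counts for each gene and library. The FPKM values that the authors deposited beside them are scaled by transcript length and library. The submitters' processing notes name cutadapt 1.9, HISAT2 2.0.4, UMI-tools, StringTie 1.3.4d, DESeq2 and edgeR, with no roles. Genome build and annotation are not given in the sources used here. Of 33865 genes found in GENCODE M21, 29627 (87.5%) had identical coordinates there, as had 41 of the 47 members, so positions are on GRCm38. Columns named Young and Aged were matched to the 2- and 18-month titles by their numbers, and 0 columns of single libraries were left out.

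Counts were normalized by TMM, filtered by filterByExpr and tested without a block for replicates with edgeR 4.0.16 (glmQLFit, glmQLFTest) in R 4.3.3, with Benjamini-Hochberg adjustment over all genes tested. The standard error is the size of the fold change (log2) over the square root of F. Folds against 0 counts were set against a floor of 3 counts per library, which covers counting error only. 1 member is counted but not reported here by name. The members and lists were chosen with earlier results of these data known. Values in every library are given for members that were called or reached a mean of 5 FPKM at either age, and the other members by counts and ranges, except Nid1, Itgax and Itgad, which were written out after their values were seen. Named partners are the most abundant gene of each list and up to 3 called genes with the largest change each way.

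Alternatives were median-of-ratios size factors, total counts, no filter, DESeq2 1.42.0, glmTreat against a fold change of 2, limma 3.58.1 on log2(FPKM + 0.1), log2(FPKM + 1) and log2(TPM + 0.1) for genes with a mean of at least 0.1 FPKM, a replicate block and leaving out each library. Summing 18-month replicates 2 and 3, which differed least, and leaving Prg4 out of the chondrocyte sums were added after seeing the data. The median chi-square per gene between them was 6.51 times its expectation from counting, against 12.8 to 46.2 for other pairs of 1 age, and all 6 libraries were kept as samples. The tests were first run on simulated counts with known changes. Promoters came from RefSeq (GRCm38.p6). Figures were drawn with matplotlib 3.10.9 in Python 3.11.15.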

Additional observations from a re-analysis of the deposited data

How the results depend on the processing

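Of the 22 members called lower, 12 kept the call in all 16 alternatives, and of the 4 called higher only Itga6 did. Of the 20 not called, 11 gained a call in 1 or more alternatives and 6 changed sign. Members called higher numbered 4, and 2 with no filter, 2 with glmTreat, 2 with 18-month replicates 2 and 3 summed, 9 with DESeq2, 9 and 9 with limma on log2(FPKM + 0.1) and log2(FPKM + 1), and 8 with log2(TPM + 0.1). Members called lower numbered 22, and 13 with glmTreat and 14 with limma on log2(FPKM + 1). Partner genes called higher numbered 18, and 8 with glmTreat. Leaving out 1 library gave 2 to 14 members higher, with 14 reached without 2-month replicate 2, and 17 to 21 lower, and 12 to 24 partner genes higher and 34 to 39 lower. Over all genes 7401 were called, with 3047 higher and 4354 lower, against 4033 with glmTreat. The split was 4365 higher and 4259 lower with limma on log2(FPKM + 0.1), 3041 and 2217 with log2(FPKM + 1), 3109 and 5819 with TPM and 5007 and 4576 without 2-month replicate 2. Over all genes, the median on the log2 scale was −0.33 with TPM scaling.

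The sign turned for 6 members that were not called. Leaving out 1 library gave log2 fold changes from −0.56 to 0.26 for Itga8, −0.87 to 0.15 for Itgb8, −1.39 to 0.089 for Lama3, −0.84 to 0.085 for Lamb1, −0.76 to 0.53 for Nid1 and −0.14 to 3.21 for Tnc. The value above 0 came without 2-month replicate 2 for Itga8, Lama3, Lamb1 and Nid1. For Itgb8 it was 0.011 without that library, 0.15 without 18-month replicate 2, 0.10 without 18-month replicate 3 and 0.13 with these libraries summed. Tnc was at −0.14 without 2-month replicate 1 and −0.079 without 2-month replicate 3. The causes were not tested.

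Leaving out 1 library, the share of the α pool held by Itga10 ranged from 61.1% to 71.4% at 2 months and from 3.59% to 5.46% at 18 months, and that of Itgam from 0.176% to 4.71% and from 49.3% to 51.1%. The share of the β pool held by Itgb2 ranged from 0.622% to 6.27% and from 42.8% to 44.3%, and that of Itgb5 from 39.7% to 51.4% and from 5.69% to 6.98%.

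The labels state no pairing of the libraries. Deviations from the age means of same-numbered libraries correlated at 0.03, 0.04 and −0.02. With 3 libraries at each age these values cannot show whether the replicate numbers pair them. With a replicate block, 3 members were called higher and 19 lower (Itga5, Lama2 and Vtn were among those lost), partner genes came to 18 higher and 36 lower, and 6032 genes were called in all.

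With 3 libraries at each age and 2-month replicate 2 apart from the others, the spread at 2 months limits what can be called among genes that were high in this library.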

Other observations

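Ratios between partner chains were taken in each library. The level of Itgb2 over the summed level of Itgal, Itgam, Itgax and Itgad was 1.21 in 2-month replicate 2 and 1.22, 1.32 and 1.36 in the 18-month libraries, against 2.36 and 2.82 in 2-month replicates 1 and 3, where the chains rest on few counts. Itgam over Itgal was 3.95 in 2-month replicate 2, 4.60 in 2-month replicate 3 and 3.73, 4.13 and 4.07 at 18 months, and 1.04 in 2-month replicate 1. Itgb7 over the summed level of Itga4 and Itgae was 2.35, 1.43 and 2.98 at 2 months and 2.43, 1.65 and 1.70 at 18 months. The ratio of Itgb2 to the widely used β1 chain Itgb1 was 0.00216, 0.256 and 0.0262 at 2 months and 2.09, 1.98 and 1.95 at 18 months. Itgb3 over Itgb5, the β chains that both pair with αv, was 0.0421, 0.435 and 0.0457 at 2 months and 2.05, 3.95 and 4.06 at 18 months. Lamb2 over Lamb1 went from 26.5, 8.35 and 21.2 at 2 months to 3.90, 2.92 and 3.45 at 18 months, while Lama4 over Lama5 was 2.22, 2.29 and 3.05 at 2 months and 2.19, 1.98 and 2.24 at 18 months. These ratios are of FPKM levels and were not tested.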
